A study of Capra hircus with 9 samples.

Results

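The SLC25 genes encode the mitochondrial carriers, the family of membrane proteins that moves nucleotides, phosphate, carboxylates, amino acids, cofactors and iron across the inner mitochondrial membrane. Members were taken by symbol (SLC25A followed by a number, or UCP1, UCP2 or UCP3), a rule that uses no measured value. They were chosen with earlier results of these data known. The table held 46 of them among 23499 genes, and 38 of these were among the 14701 genes with enough signal to be tested. RNA had been sequenced from the mammary gland of 9 healthy Laoshan dairy goats (Capra hircus) of parity 3 with an average age of 4 years, with 1 library per goat. There were 3 goats in late lactation (LL, 240 days postpartum), 3 in the dry period (DP, 300 days postpartum) and 3 in late gestation (LG, 140 days after mating). No drug, diet or genetic treatment is named in the labels, and the 3 stages are the only groups. The p-values therefore measure the spread between goats of a stage, and each goat gave its tissue once.

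Most carriers of this family exchange a metabolite of the mitochondrial matrix for a related metabolite of the cytosol, and through that exchange they connect respiration with biosynthesis outside the organelle. The ADP/ATP carriers and the phosphate carrier supply ATP synthase, and the aspartate/glutamate and oxoglutarate carriers serve the malate-aspartate shuttle. The citrate carrier delivers citrate to the cytosol, which secretory cells of the mammary gland use as a source of reducing power and release into milk itself.

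Levels are given as FPKM (fragments per kilobase of transcript, scaled to the sequenced fragments of the library, so a level per length) as deposited. Summed over all genes, FPKM reached 940676 to 1157015 in the LL goats, 601250.2 to 616268 in the DP goats and 733277 to 768157 in the LG goats, and the 10 highest genes of a library held 80.6 to 86.0% of that sum in LL, 53.6 to 58.1% in the DP goats and 55.0 to 58.5% in the LG goats. For the comparisons the values were therefore divided by a median-ratio scaling factor per library (0.498 to 0.605 in the LL goats, 1.44 to 1.53 in the DP goats and 1.198 to 1.31 in LG). On the log2 scale the median of all tested genes, when no factor was applied, was 1.09 for DP against LL, 0.93 for LG against LL and -0.18 for LG against DP. Every fold change below is on the scale of log2(scaled FPKM + 1), which understates changes of low genes, and is relative to the median shift. A gene is called when limma with Benjamini-Hochberg adjustment over all genes tested gave an adjusted p under 0.05 and the log2 fold change was at least 1 in size. The number of reads behind an FPKM is not in the table, so depth per gene is unknown and no counting error is given.

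The tissue label was checked against marker genes. The 6 luminal epithelial markers (KRT8, KRT18, KRT19, EPCAM, CDH1, ELF5) summed to 496 to 612 FPKM in the LL goats, 410 to 753 in the DP goats and 904 to 1170 in the LG goats. Leukocyte markers (5 genes) summed to 11.2 to 16.6 FPKM in the LL goats, 69.9 to 147 in the DP goats and 27.4 to 35.3 in the LG goats, and fibroblast markers (5 genes) to 87.5 to 164, 655 to 2510 and 509 to 919. Endothelial markers (4 genes) reached 46.9 to 71.6 in the LL goats, 151 to 219 in the DP goats and 56.3 to 89.6 in the LG goats, and myoepithelial markers (5 genes) 81.6 to 127, 200.5 to 635 and 253 to 379. Adipocyte markers (5 genes) summed to 159 to 220 FPKM in the LL goats, of which CIDEA alone, a lipid droplet gene that secretory epithelium also uses, gave 155 to 217, while LEP was listed at 0 in all 3 LL libraries. The adipocyte sum was 4.28 to 31.2 in the DP goats and 24.5 to 34.4 in the LG goats. After scaling, luminal markers summed to 819 to 1106 in LL libraries, 269 to 522 in DP libraries and 733 to 891 in LG libraries. That sum was lowest for DP. As deposited, ELF5 alone gave 266 to 374 FPKM of the LL sums, 37.6 to 63.7 of the DP sums and 504 to 654 of the LG sums. ELF5 was the only luminal marker called in DP against LL (log2 fold change -4.19, limma adjusted p = 3.13e-06). Of the 6 fold changes, 4 lay below 0 and 2 above 0, so the lower sum is not read as a drop of luminal markers in general. Scaled leukocyte markers summed to 20.2 to 27.7, 48.5 to 96.2 and 20.8 to 28.6, fibroblast markers to 176 to 270.2, 429 to 1744 and 425 to 745, endothelial markers to 87.3 to 118, 101 to 152 and 47.0 to 68.2, myoepithelial markers to 164 to 224, 131 to 441 and 212 to 289, and adipocyte markers to 262 to 398, 2.97 to 20.4 and 20.4 to 26.1 in LL, DP and LG. The part of these cell types in the SLC25 results was not tested. Skeletal muscle markers (4 of 5 in the table) stayed at or below 1.75 FPKM and erythroid markers (3 of 4 in the table) at or below 0.24, with ALAS2 listed at 0 in all 9 libraries.

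The table has a separate run of 1375 genes in alphabetical order at its end, and 6 SLC25 genes stand in it: SLC25A1, SLC25A4, SLC25A5, SLC25A21, SLC25A29 and SLC25A39. Genes in that run differed from the rest of the table in the comparison of DP with LL, where their median was -1.11 on the log2 scale and 67.8% were called, against 0.05 and 17.9% for the other tested genes. The medians were -0.68 against 0.05 in LG against LL, with 52.9% and 13.6% called, and 0.67 against -0.01 in LG against DP, with 64.3% and 7.98% called. How the table was put together is not given in the sources used here, and the part of this run in the results of the 6 genes was not tested. Counts of calls are given below with and without them. Of the marker genes above, ELF5, CIDEA, PTPRC, CD68, CSF1R, COL1A1, COL3A1, DCN, PDGFRA and PECAM1 also stand in that run. The part of the run in the marker sums was not tested.

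Summed over the 46 members, SLC25 FPKM as deposited was 307 ± 41.7 (SD, n = 3) in LL, 395 ± 35.5 in the DP goats and 524 ± 68.5 in the LG goats. After scaling the order was different, with 556 ± 51.2 in the LL goats, 269 ± 29.7 in the DP goats and 419 ± 37.8 in the LG goats, so the direction of the summed level between LL and the other stages depends on the scaling. As a share of all FPKM of a library the family took 0.0225 to 0.0341% in the LL goats, 0.0604 to 0.0725% in the DP goats and 0.0629 to 0.0783% in the LG goats. SLC25A3, SLC25A5, SLC25A4 and SLC25A29 together held 56.5 to 62.7% of the SLC25 FPKM in the LL goats, 34.0 to 43.8% in the DP goats and 53.1 to 57.5% in the LG goats, so these 4 genes held the larger part of the family's FPKM in LL and LG but not in DP.

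**Figure D1:**
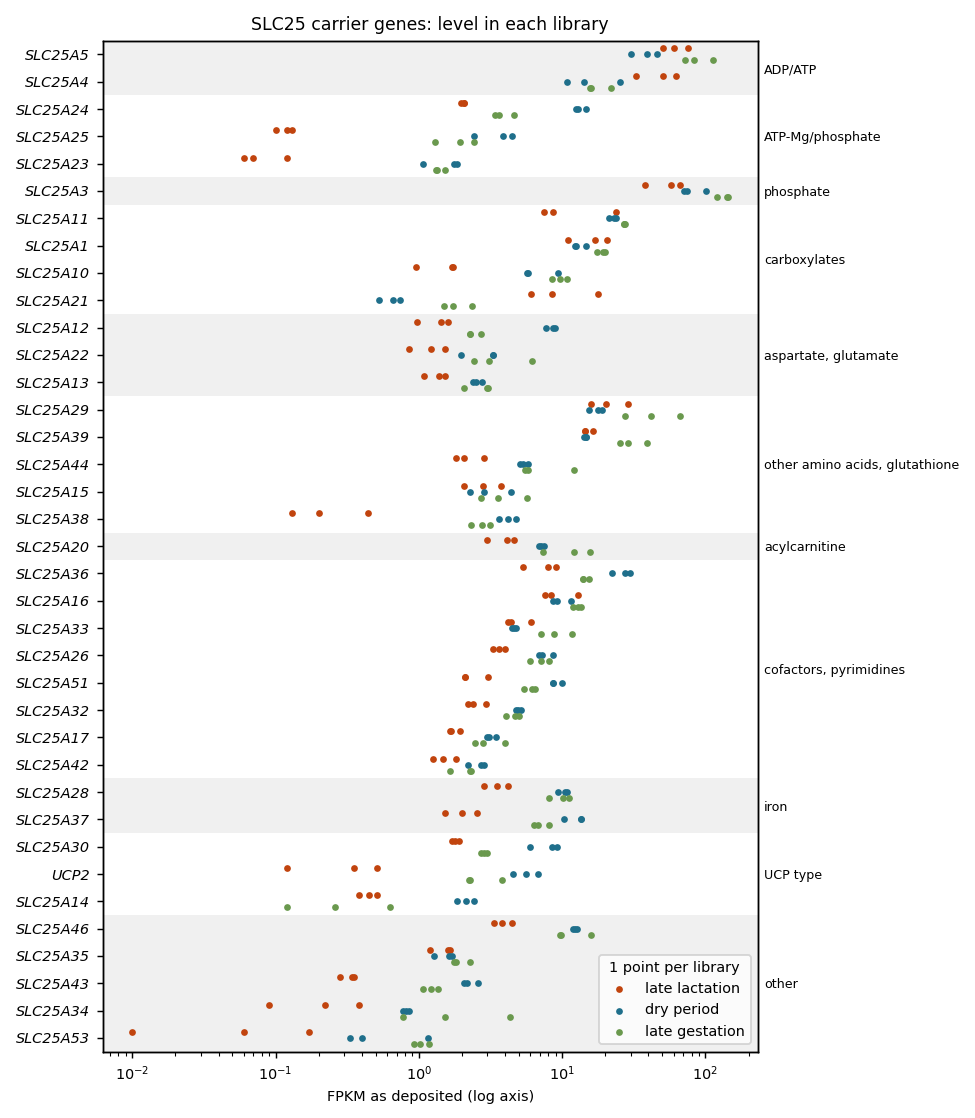
FPKM as deposited (log axis) of 37 tested SLC25 genes, grouped by transported substrate, with 1 point per library and the stages in 3 colours. SLC25A3 and SLC25A5 lie highest. SLC25A38, SLC25A25, SLC25A43 and SLC25A23 lie under 0.5 FPKM in every LL library and above 1 FPKM in every DP and LG library. They could pass the filter only through DP or LG. As deposited, 84.0% of all tested genes lay above LL in DP and 76.1% in LG without overlap.

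Of the 38 tested members, 14 were called in DP against LL, 6 higher and 8 lower in DP, where 22.6% of all tested genes were called (13.8% higher and 8.79% lower). In LG against LL 7 members were called, 5 higher and 2 lower in LG, with 17.3% of all tested genes called (10.7% higher and 6.61% lower). In LG against DP 5 members were called, 3 higher and 2 lower in LG, beside 13.3% of all tested genes (6.37% higher and 6.88% lower). As shares of the tested members these counts were 36.8%, 18.4% and 13.2%, so the share was above that of all genes in DP against LL and close to it in both other comparisons. The median log2 fold change of the tested members was -0.10 against 0.00 for all tested genes in DP against LL, -0.13 against 0.02 in LG against LL and 0.17 against 0.01 in LG against DP. DP and LG were both compared with the same LL libraries, and LG and DP share the DP libraries, so the comparisons are not independent of each other.

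These splits depended on the scaling. Without scaling 16 members were called higher and 2 lower in DP against LL, 16 higher and 2 lower in LG against LL, and 3 higher and 4 lower in LG against DP. Of all tested genes 54.3% and 2.51%, 45.6% and 2.35%, and 4.86% and 10.7% were then called higher and lower. Under quantile normalization the splits were 7 higher and 10 lower, 2 higher and 2 lower, and 3 higher and 2 lower, with 12.2% and 7.29%, 8.92% and 5.75%, and 5.74% and 6.79% of all tested genes called. Without the 6 members of the end run, the calls were 6 higher and 2 lower in DP against LL, 5 higher and none lower in LG against LL, and none higher and 2 lower in LG against DP. These were 8, 5 and 2 of 32 tested members, or 25%, 15.6% and 6.25%, beside 17.9%, 13.6% and 7.98% of the tested genes outside the run, so the distance to the background in DP against LL was smaller there. By the adjusted p alone 28 members passed in DP against LL (14 higher and 14 lower, with 56.9% of all tested genes passing), 18 in LG against LL (9 and 9, with 50.2%) and 16 in LG against DP (9 and 7, with 34.8%). Outside the end run 22, 14 and 12 of 32 members passed by the adjusted p, beside 54.2%, 48.1% and 30.6% of all tested genes outside it. In all, 16 members were called in at least 1 comparison (42.1%, beside 32.0% of all tested genes) and 22 tested members in none. Of the tested members 29 had at least 0.5 FPKM in all 9 libraries, and 7 were under 0.5 FPKM in every LL library and could pass the filter only through DP or LG. Those 7 include 3 of the 6 called higher in DP against LL and 3 of the 5 called higher in LG against LL. UCP2, at 0.35, 0.51 and 0.12 FPKM in LL, also needed DP or LG libraries to pass. The counts of higher calls are therefore descriptions.

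**Figure D2:**
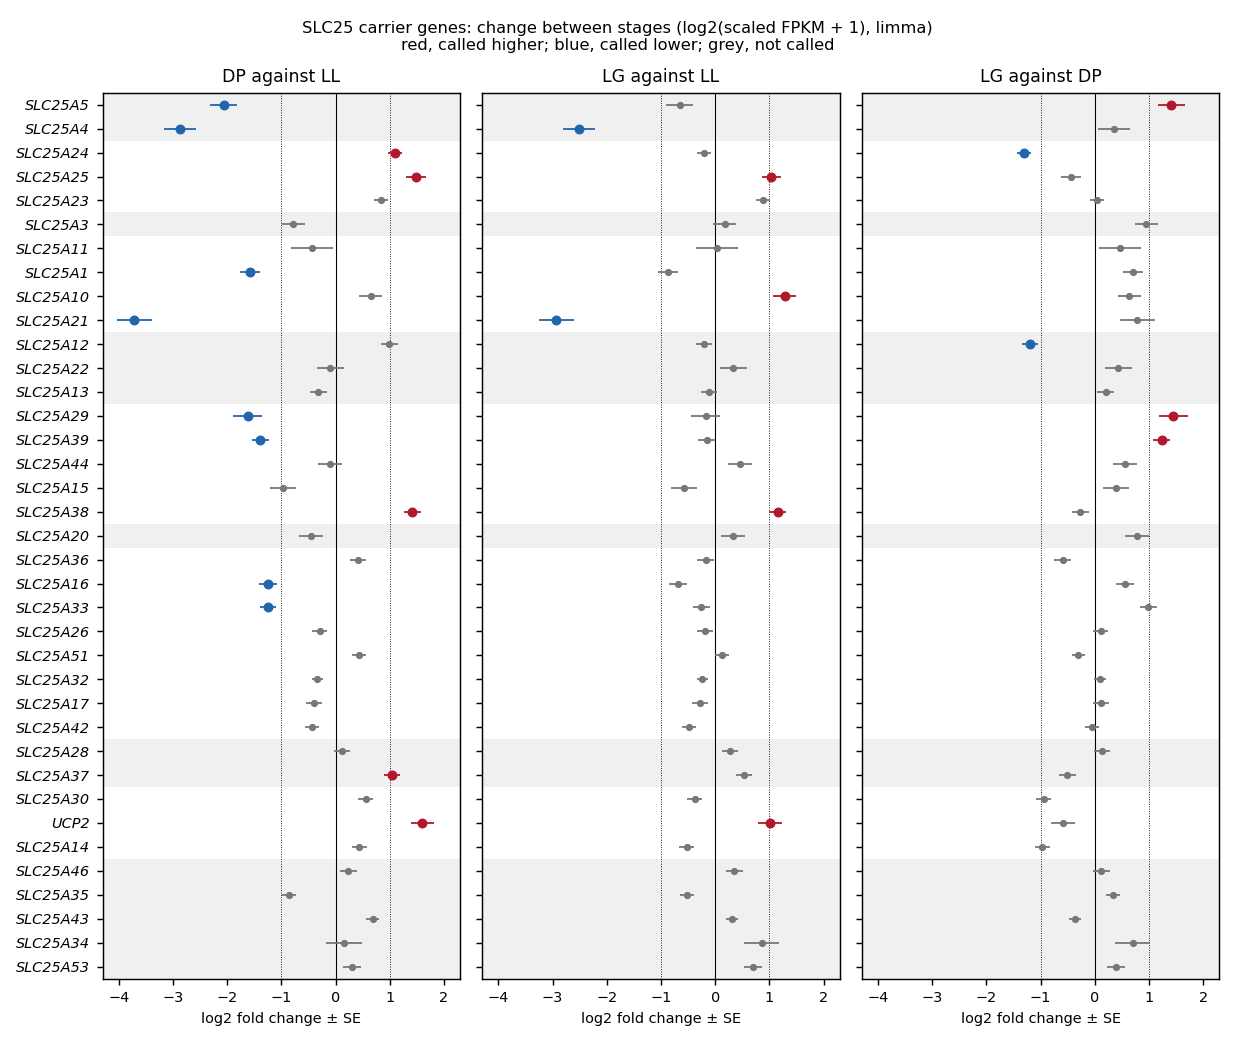
Log2 fold change with its standard error (limma, log2(scaled FPKM + 1)) of 37 tested SLC25 genes in DP against LL, LG against LL and LG against DP, with called genes in red (higher) or blue (lower) and dotted lines at -1 and 1. The lowest points are SLC25A21 and SLC25A4 in both comparisons with LL, and the blue points in DP against LL other than these 2 lose their call without scaling.

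The adenine nucleotide carriers SLC25A4 and SLC25A5, which exchange cytosolic ADP for matrix ATP, were both called lower in DP than in LL. Of all tested genes 8.79% were called lower in that comparison. Both carriers stand in the end run, where the median was -1.11 on the log2 scale and 67.8% of genes were called. SLC25A4 (chromosome 27, 30062117 to 30066524, minus strand, ARS1.2), the isoform typical of heart and muscle, was at 32.64, 50.50 and 62.29 FPKM in the LL goats, 10.81, 14.13 and 25.27 in the DP goats and 15.78, 15.61 and 21.79 in the LG goats. All 6 DP and LG libraries lay below all 3 LL libraries, while DP and LG overlapped. The log2 fold change was -2.87 (SE 0.29, limma adjusted p = 4.52e-05) in DP against LL and -2.52 (SE 0.29, adjusted p = 0.000136) in LG against LL, and LG against DP gave 0.36 (adjusted p = 0.368). SLC25A5, the isoform of proliferating and many other tissues, which lies on an unplaced scaffold, was at 60.49, 75.76 and 50.40 FPKM in the LL goats, 30.39, 39.29 and 45.97 in the DP goats and 82.72, 72.43 and 113.72 in the LG goats. DP was the low stage, with each of its libraries under those of LL and LG. SLC25A5 fell by 2.06 (log2) in DP against LL (SE 0.25, adjusted p = 0.000113), a call lost without scaling (-0.68), and was 1.41 higher in LG than in DP (SE 0.25, adjusted p = 0.00216). In LG against LL its value was -0.65 (adjusted p = 0.0497), which did not reach the fold threshold and was 0.51 without scaling. SLC25A4 and SLC25A5 are close paralogs, and how reads matching both were divided is not given in the sources used here.

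SLC25A4 made up 35.0 to 55.3% of the summed FPKM of this pair in LL (43.4 ± 10.5%, SD, n = 3), 26.2 to 35.5% in DP (29.4 ± 5.27%) and 16.0 to 17.7% in the LG goats (16.6 ± 0.971%). This share does not depend on the scaling between libraries, and LG lay below every other library. LL and DP overlapped slightly, since the highest DP share was above the lowest of LL. The germline isoform SLC25A31 reached at most 0.08 FPKM and was not tested. SLC25A6 was not analysed here.

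The phosphate carrier SLC25A3 (chromosome 5, 61457141 to 61463332), which brings in the phosphate used by ATP synthase, was the SLC25 gene of highest mean level, at 38.09, 66.91 and 57.32 FPKM in the LL goats, 71.32, 74.88 and 101.03 in the DP goats and 142.13, 120.59 and 144.02 in the LG goats. As deposited the stages did not overlap and stood in the order LL, DP, LG (means 54.1 ± 14.7, 82.4 ± 16.2 and 136 ± 13.0). After scaling SLC25A3 was not called in any comparison. Its log2 fold change in LG against DP was 0.95 (SE 0.21, adjusted p = 0.00771), just under the threshold, and in DP against LL it was -0.78 (SE 0.21, adjusted p = 0.0122), which turned to 0.62 without scaling.

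The calcium-regulated ATP-Mg/phosphate carriers set the amount of adenine nucleotides inside the matrix, and of 3 tested members 2 were called higher in DP against LL, where 13.8% of all tested genes were. SLC25A25 and SLC25A23 were under 0.5 FPKM in every LL library and passed the filter only through DP and LG, so this count is a description. SLC25A24 (chromosome 3, 85464037 to 85522919) was at 2.07, 1.98 and 2.08 FPKM in the LL goats, 12.85, 12.52 and 14.61 in the DP goats and 3.40, 4.58 and 3.61 in the LG goats. The DP libraries were far above the other 6 and the LL libraries were nearly equal. SLC25A24 was 1.09 higher in DP than in LL (SE 0.13, adjusted p = 0.000122) and 1.30 lower in LG than in DP (log2 fold change -1.30, SE 0.13, adjusted p = 0.000154), and LG against LL gave -0.21 (adjusted p = 0.214, 0.67 without scaling). SLC25A25 (chromosome 11, 98258449 to 98291994) was at 0.12, 0.13 and 0.10 FPKM in the LL goats, 3.87, 2.42 and 4.45 in the DP goats and 1.30, 2.44 and 1.95 in the LG goats. All LL libraries were near 0.1 FPKM and lay far under the other stages, while DP and LG overlapped. Its log2 fold change was 1.48 in DP against LL (SE 0.18, adjusted p = 0.000133) and 1.04 in LG against LL (SE 0.18, adjusted p = 0.00142), and the second call was lost without LG2 (0.89), under quantile normalization (0.97) and in a fit of the 2 stages alone (0.93). SLC25A23 moved between 0.06 and 0.12 FPKM in LL and 1.07 and 1.84 in DP and LG, with log2 fold changes of 0.83 and 0.88 against LL that stayed under the fold threshold. SLC25A24 accounted for 86.6 to 90.8% of the summed FPKM of SLC25A23, SLC25A24, SLC25A25 and SLC25A41 in the LL goats, 67.8 to 76.8% in the DP goats and 49.2 to 54.8% in the LG goats, with no overlap between stages.

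Among the 4 carboxylate carriers SLC25A21, SLC25A1 and SLC25A10 were called in at least 1 comparison, as were 32.0% of all tested genes. SLC25A21 and SLC25A1 stand in the end run, where 67.8% of genes were called in DP against LL. SLC25A21 (chromosome 21, 46296857 to 46825312), the carrier of 2-oxoadipate and related oxodicarboxylates from lysine and tryptophan breakdown, was at 8.56, 17.90 and 6.09 FPKM in the LL goats, 0.53, 0.74 and 0.66 in the DP goats and 1.73, 2.34 and 1.5 in the LG goats. The 3 stages did not overlap as deposited, with LL highest and DP lowest. The log2 fold change was -3.71 in DP against LL (SE 0.32, adjusted p = 1.91e-05) and -2.93 in LG against LL (SE 0.32, adjusted p = 0.000102), the lowest of any SLC25 gene in both comparisons, and 0.78 in LG against DP (adjusted p = 0.0871). It kept both lower calls without scaling and without any 1 library.

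SLC25A1, the citrate carrier on an unplaced scaffold (255220 to 258186), was at 10.95, 20.62 and 17.02 FPKM in the LL goats, 12.27, 12.41 and 14.65 in the DP goats and 17.62, 19.84 and 19.22 in the LG goats. As deposited, LL overlapped both other stages, and after scaling DP lay below LL in every library. SLC25A1 fell by 1.57 (log2) in DP against LL (SE 0.19, adjusted p = 0.000109), a call lost without scaling (-0.25), and stood at -0.87 in LG against LL (adjusted p = 0.00401, 0.25 without scaling). SLC25A10 (chromosome 19, 50475940 to 50483447), which exchanges malate or succinate for phosphate, was at 1.72, 0.95 and 1.71 FPKM in the LL goats, 9.29, 5.71 and 5.82 in the DP goats and 9.73, 10.73 and 8.55 in the LG goats. LL lay below the other 6 libraries, and DP1 overlapped LG. It was called in LG against LL only (log2 fold change 1.28, SE 0.21, adjusted p = 0.000983), with 0.65 in DP against LL (adjusted p = 0.025) and 0.64 in LG against DP (adjusted p = 0.0406).

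SLC25A11, the oxoglutarate/malate carrier of the malate-aspartate shuttle, was at 23.74, 8.65 and 7.51 FPKM in the LL goats, 23.84, 21.15 and 23.18 in the DP goats and 27.01, 26.83 and 27.35 in the LG goats, and was not called. LL1 stood with the DP libraries and apart from both other LL libraries. Its values follow those of PFN1 (profilin), a gene that lies before it on the same strand of chromosome 19 (26252484 to 26255807, with SLC25A11 at 26260973 to 26263786). PFN1 minus SLC25A11 was 1.8 to 2.3 FPKM and a whole multiple of 0.1 FPKM in 9 of 9 libraries. None of the other members searched (41 in all, SLC25A11 included) had such a partner gene. The level listed for SLC25A11 is therefore uncertain as a measurement of that gene alone, and no direction is read from it.

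SLC25A12 (aralar, chromosome 2, 111556439 to 111653780) and SLC25A13 (citrin) export aspartate in exchange for glutamate, and only the former was called. SLC25A12 was at 1.59, 0.97 and 1.43 FPKM in the LL goats, 8.95, 7.73 and 8.61 in the DP goats and 2.26, 2.72 and 2.28 in the LG goats. The DP libraries lay far above the other 6. The log2 fold change was -1.20 in LG against DP (SE 0.15, adjusted p = 0.000443) and 0.99 in DP against LL (SE 0.15, adjusted p = 0.000564), just under the fold threshold and past it under quantile normalization (1.03). SLC25A13 ranged from 1.08 to 3.06 FPKM over the 9 libraries, with log2 fold changes of -0.32, -0.11 and 0.20. SLC25A12 took 39.1 to 57.0% of the FPKM of the pair in LL, 75.8 to 78.0% in the DP goats and 42.5 to 56.8% in the LG goats, so DP stood apart and LL and LG overlapped. SLC25A22, a glutamate carrier, was between 0.85 and 6.16 FPKM with LG3 highest and was not called.

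**Figure D3:**
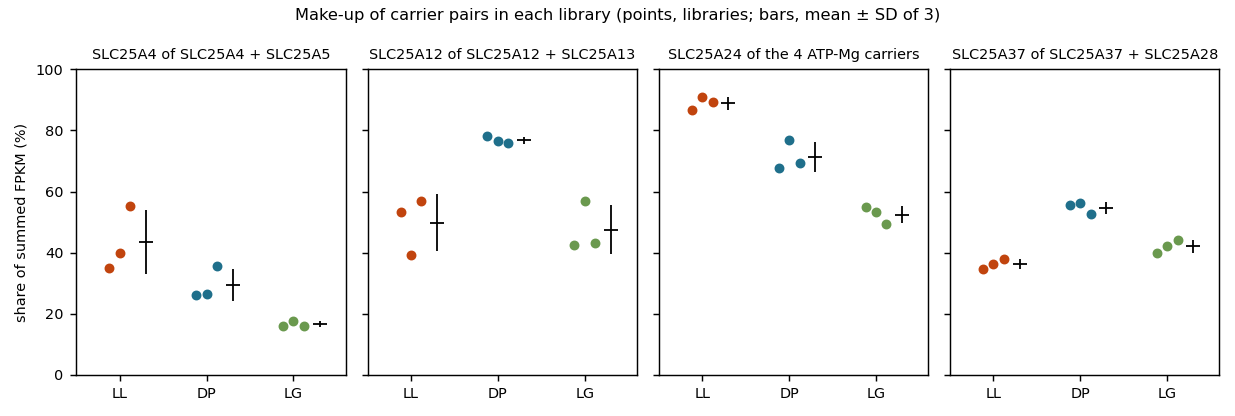
Share of summed FPKM (%) taken by SLC25A4 of the ADP/ATP pair, SLC25A12 of the aspartate/glutamate pair, SLC25A24 of the 4 ATP-Mg/phosphate carriers and SLC25A37 of the iron carriers, with 1 point per library and mean ± SD of 3 beside them. The SLC25A4 share is lowest in LG (16.0 to 17.7%), and the SLC25A12 share (75.8 to 78.0%) and SLC25A37 share (52.5 to 56.1%) are highest in DP.

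The carriers of other amino acids and of glutathione held 5 tested members, of which 2, both in the end run, were called lower and 1 higher in DP against LL (8.79% and 13.8% among all tested genes). SLC25A29 (chromosome 21, 64479700 to 64493809), a carrier of basic amino acids, was at 16.02, 20.39 and 28.98 FPKM in the LL goats, 15.46, 17.88 and 18.83 in the DP goats and 27.59, 41.60 and 66.07 in the LG goats. As deposited LL and DP overlapped, and LG3 was the highest library. SLC25A29 fell by 1.62 (log2) in DP against LL (SE 0.27, adjusted p = 0.000776; -0.27 and no call without scaling) and was 1.45 higher in LG than in DP (SE 0.27, adjusted p = 0.00275). SLC25A39 (chromosome 19, 43763699 to 43768342), required for glutathione import into mitochondria, was at 14.38, 16.36 and 14.53 FPKM in the LL goats, 14.64, 14.57 and 14.21 in the DP goats and 28.78, 25.54 and 38.97 in the LG goats. Its deposited levels in LL and DP were alike, and LG lay above both. After scaling, SLC25A39 was 1.39 lower in DP than in LL (log2 fold change -1.39, SE 0.16, adjusted p = 8.38e-05), a call that ended without scaling (-0.05), and 1.23 higher in LG than in DP (SE 0.16, adjusted p = 0.000423).

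SLC25A38 (chromosome 22, 12495863 to 12513267), the glycine carrier that feeds heme synthesis, was at 0.13, 0.20 and 0.44 FPKM in the LL goats, 3.64, 4.16 and 4.74 in the DP goats and 3.16, 2.77 and 2.31 in the LG goats. LL was the low stage, and as deposited DP lay above LG in every library. After scaling DP and LG overlapped, and LG against DP gave -0.26 with no call (limma adjusted p = 0.234). SLC25A38 was under 0.5 FPKM in every LL library and passed the filter only through DP and LG, so its calls against LL are descriptions. The log2 fold change was 1.42 in DP against LL (SE 0.16, adjusted p = 9.15e-05) and 1.15 in LG against LL (SE 0.16, adjusted p = 0.000434, 0.91 and no call under quantile normalization). SLC25A15, the ornithine carrier, and SLC25A44, a carrier of branched-chain amino acids, were not called, with SLC25A15 at -0.97 in DP against LL (adjusted p = 0.00727) and SLC25A44 at 12.19 FPKM in LG3 against 1.82 to 5.75 in the other 8 libraries. SLC25A20, the carnitine/acylcarnitine carrier of fatty acid oxidation, was at 3.00, 4.14 and 4.59 FPKM in the LL goats, 7.11, 6.91 and 7.42 in the DP goats and 15.72, 7.41 and 12.11 in the LG goats. Its LG libraries were the most spread, and its largest log2 fold change was 0.78 in LG against DP (adjusted p = 0.0231), under the fold threshold.

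Among the carriers of cofactors and pyrimidine nucleotides, SLC25A16 and SLC25A33 were called lower in DP against LL. SLC25A16 (chromosome 28, 20761225 to 20790145), assigned to coenzyme A transport, was at 7.61, 8.36 and 12.95 FPKM in the LL goats, 9.22, 8.59 and 11.48 in the DP goats and 12.86, 11.82 and 13.60 in the LG goats. LL and DP overlapped as deposited and parted after scaling. Its value of -1.25 on the log2 scale for DP against LL (SE 0.17, adjusted p = 0.000221) turned to 0.041 without scaling. SLC25A33 (chromosome 16, 42409266 to 42441068), a pyrimidine nucleotide carrier, was at 4.20, 4.43 and 6.08 FPKM in the LL goats, 4.45, 4.61 and 4.78 in the DP goats and 7.09, 8.78 and 11.69 in the LG goats. LG lay above the other stages as deposited. SLC25A33 was 1.24 lower in DP than in LL (log2 fold change -1.24, SE 0.15, adjusted p = 0.000121), a call that ended without scaling (-0.06), and stood at 0.99 in LG against DP (SE 0.15, adjusted p = 0.00104), just under the fold threshold.

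SLC25A36, the other pyrimidine nucleotide carrier, had the highest mean FPKM of the cofactor group, with 5.31, 7.91 and 9.07 in the LL goats, 29.68, 22.43 and 27.41 in the DP goats and 13.94, 13.96 and 15.48 in the LG goats. The stages did not overlap as deposited, with DP highest. After scaling it was not called, at 0.42, -0.17 and -0.59 (adjusted p = 0.0421, 0.377 and 0.0156). SLC25A17, SLC25A26, SLC25A32, SLC25A42 and SLC25A51, which carry peroxisomal cofactors, S-adenosylmethionine, folate or FAD, coenzyme A and NAD, ranged from 1.25 FPKM (SLC25A42) to 9.92 FPKM (SLC25A51), and their log2 fold changes stayed between -0.48 and 0.43.

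The mitoferrins import iron for heme and iron-sulfur clusters. SLC25A37 (mitoferrin-1, chromosome 8, 70482484 to 70528638) was at 1.51, 1.99 and 2.55 FPKM in the LL goats, 13.58, 13.47 and 10.37 in the DP goats and 6.73, 8.10 and 6.39 in the LG goats. The stages did not overlap, with DP highest and LL lowest. SLC25A37 was 1.04 higher in DP than in LL on the log2 scale (SE 0.15, adjusted p = 0.000382), a call lost without LL1 (0.95), DP1 (1.00, just under the threshold) or DP2 (0.97), and LG against LL gave 0.53 (adjusted p = 0.015). SLC25A28 (mitoferrin-2) was at 2.85, 3.51 and 4.18 FPKM in the LL goats, 10.86, 10.55 and 9.39 in the DP goats and 10.12, 11.17 and 8.09 in the LG goats, and stood at 0.13, 0.27 and 0.14 after scaling with no call. The DP and LG libraries of SLC25A28 overlapped. SLC25A37 took 34.6 to 37.9% of the pair in LL, 52.5 to 56.1% in the DP goats and 39.9 to 44.1% in the LG goats. The erythroid gene ALAS2 was at 0 in every library, while leukocyte markers were highest in DP, and the part of blood cells in the SLC25A37 level was not tested. In bulk tissue fewer cells of a type and less RNA per cell cannot be told apart, which holds for every gene here.

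Uncoupling proteins dissipate or exchange ions across the inner membrane, and UCP2, the form found in many tissues and in immune cells, was the only one of UCP1, UCP2 and UCP3 to pass the filter. UCP2 (chromosome 15, 29614181 to 29620958) was at 0.35, 0.51 and 0.12 FPKM in the LL goats, 6.80, 5.59 and 4.53 in the DP goats and 3.81, 2.29 and 2.23 in the LG goats. UCP2 passed the filter only with DP or LG libraries, so its calls against LL are descriptions. As deposited the stages did not overlap, with DP highest and LL lowest. After scaling UCP2 overlapped between DP and LG, and LG against DP gave -0.59 with no call (limma adjusted p = 0.0617). Its log2 fold change was 1.60 in DP against LL (SE 0.22, adjusted p = 0.000261) and 1.01 in LG against LL (SE 0.22, adjusted p = 0.00421), and the second fell under the fold threshold under quantile normalization (0.85), in a fit of the 2 stages alone (0.93) and without LL3 (0.83), LG1 (0.81) or any of the 3 DP libraries (0.99). Leukocyte markers were also highest in DP, with 3 of 4 tested called higher in DP against LL, where 13.8% of all tested genes were. PTPRC, the pan-leukocyte CD45 gene, was at 2.96 to 4.13 FPKM in the LL goats, 19.0 to 56.0 in the DP goats and 8.42 to 12.93 in the LG goats. The markers PTPRC, CD68 and CSF1R lie in the end run, where 67.8% of genes were called in DP against LL. The part of leukocytes in the UCP2 result was not tested. UCP1, the protein of brown fat, was at 0 to 0.27 FPKM and UCP3 at 0 to 0.03.

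SLC25A30 and SLC25A14, members related to the uncoupling proteins, were highest in DP and were not called. SLC25A30 was at 1.69, 1.79 and 1.92 FPKM in the LL goats, 8.53, 5.93 and 9.16 in the DP goats and 2.70, 2.97 and 2.86 in the LG goats. Its DP libraries were above all others, and its log2 fold change in LG against DP was -0.94 (adjusted p = 0.000869), close to the fold threshold. SLC25A14 was at 0.38 to 0.51 FPKM in the LL goats, 1.85 to 2.43 in the DP goats and 0.12 to 0.63 in the LG goats, with -0.97 in LG against DP (adjusted p = 0.00086).

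**Figure D4:**
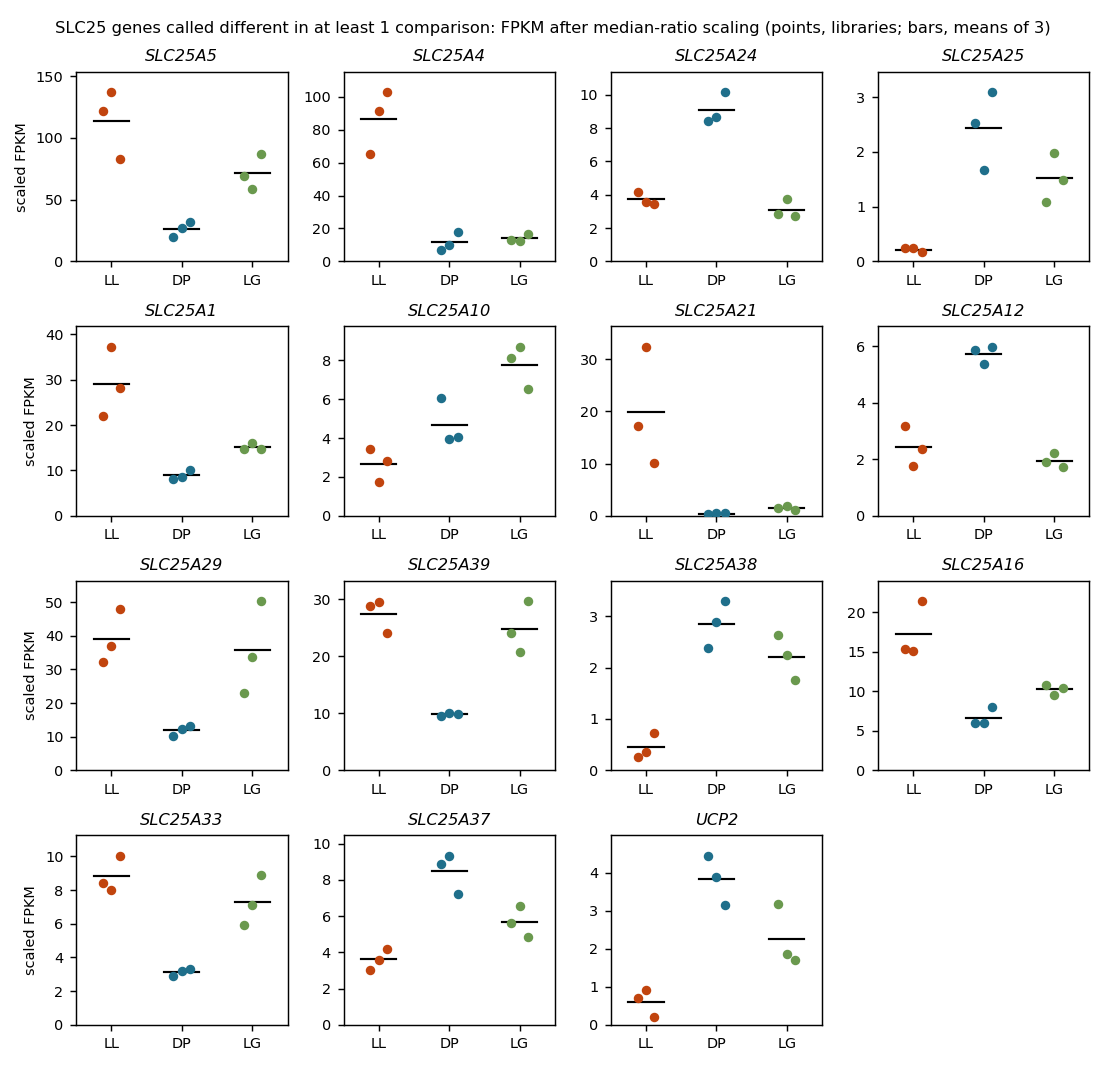
FPKM after median-ratio scaling (each vertical axis starts at 0) of 15 SLC25 genes called in at least 1 comparison, with 1 point per library and a bar at the mean of 3. SLC25A21 and SLC25A4 are high in LL only, SLC25A24 and SLC25A12 are high in DP only, and SLC25A5, SLC25A29 and SLC25A39 are low in DP. As deposited the mean of these last genes was lowest in DP too, with LL and DP overlapping for SLC25A29 and SLC25A39. Their order of LL and LG differs from that of the deposited means.

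The remaining members have transport roles that are less well known. SLC25A46, an atypical member of the outer membrane that acts in mitochondrial shape, was at 3.32, 3.80 and 4.45 FPKM in the LL goats, 12.38, 11.84 and 12.62 in the DP goats and 9.82, 9.64 and 15.78 in the LG goats, and its log2 fold changes after scaling were 0.23, 0.36 and 0.12 with no call. LG3 was its highest library, and LG1 and LG2 lay below the DP libraries. SLC25A34, SLC25A35, SLC25A43 and SLC25A53 ranged from 0.01 to 4.35 FPKM and were not called. The 8 members that were not tested were SLC25A27 (0.05 to 0.57 FPKM), SLC25A47 (0.04 to 0.76), SLC25A41 (0 to 0.40), SLC25A48 (0 to 0.66), UCP1, SLC25A31, UCP3 and SLC25A45, the last listed at 0 in all 9 libraries. SLC25A2, SLC25A18, SLC25A40 and SLC25A52 were not analysed here. SLC25A26, SLC25A35, SLC25A37, SLC25A41 and SLC25A11 each overlap a gene on the opposite strand (SLC25A37 and SLC25A41 an unnamed locus, SLC25A35 RANGRF, SLC25A26 LRIG1 and SLC25A11 RNF167), and whether counting used strand is not given in the sources used here.

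The libraries of 2 stages were also compared without a test, by whether their scaled ranges overlapped. In DP against LL 15 members lay higher and 16 lower without overlap (39.5% and 42.1% of 38), beside 32.5% and 33.4% of all tested genes. In LG against LL 10 lay higher and 9 lower, beside 31.0% and 30.2% of all tested genes, and in LG against DP 14 and 8, beside 25.1% and 22.8%. As deposited 27 members lay higher and 3 lower in DP against LL (84.0% and 3.88% of all tested genes did so), 29 and 2 in LG against LL (76.1% and 3.87%), and 10 and 10 in LG against DP (15.5% and 34.2%). Without the members of the end run, which leaves 32, the scaled counts were 15 higher and 10 lower, 10 and 6, and 9 and 8. Of the tested genes outside the run 33.8% and 30.3%, 31.7% and 27.8%, and 22.3% and 22.2% did so. The scaled mean was highest in LL for 16 members, in DP for 11 and in LG for 11, against 36.8%, 32.5% and 30.7% of all tested genes. Outside the end run these counts were 10, 11 and 11, beside 35.5%, 33.5% and 31.0% of the tested genes there. As deposited the highest mean stood in LL for 2 members, in DP for 19 and in LG for 17 (5.26%, 50.0% and 44.7%). Among all tested genes these shares were 4.12%, 62.2% and 33.7%. The stage of highest level thus depended on the scaling.

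Genes that work beside the carriers were taken as a list of 45, of which 43 were tested. The list held other mitochondrial transporters, enzymes of citrate and malate metabolism, genes of fatty acid oxidation and regulators of mitochondrial biogenesis. In DP against LL 12 were called (7 higher and 5 lower, 27.9%, median -0.23), in LG against LL 8 (5 higher and 3 lower, 18.6%, median 0.13) and in LG against DP 8 (5 higher and 3 lower, 18.6%, median 0.29). These shares stand beside 22.6%, 17.3% and 13.3% of all tested genes. The listed genes MPC1, MPC2, ESRRA, HADHA, SFXN5 and TSPO lie in the end run of the table, and without them 8, 4 and 4 of 37 partner genes were called (21.6%, 10.8% and 10.8%, beside 17.9%, 13.6% and 7.98% of the tested genes outside the run). The part of the run in the values of these 6 genes was not tested. MPC1 and MPC2, the subunits of the mitochondrial pyruvate carrier and both in the end run, were called lower in DP and LG than in LL. MPC1 was at 102.84, 99.94 and 85.97 FPKM in the LL goats, 32.13, 26.81 and 25.13 in the DP goats and 41.92, 65.53 and 73.11 in the LG goats, with log2 fold changes of -3.13 in DP against LL (SE 0.21) and -1.87 in LG against LL (adjusted p = 0.000123). MPC2 was at 62.41, 81.90 and 37.19 FPKM in the LL goats, 9.52, 9.88 and 9.60 in the DP goats and 14.86, 11.74 and 12.44 in the LG goats, with -3.80 (SE 0.28) and -3.21. Both subunits lay above the other stages in every LL library as deposited.

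Enzymes of citrate and malate metabolism were called in different directions. ACLY, which cleaves cytosolic citrate to acetyl-CoA, was at 2.89, 3.28 and 2.83 FPKM in the LL goats, 19.30, 14.48 and 21.64 in the DP goats and 15.39, 12.56 and 17.89 in the LG goats, with log2 fold changes of 1.06 (adjusted p = 0.00077) and 1.03 (adjusted p = 0.00114) against LL. CS, citrate synthase, was 1.03 lower in DP than in LL after scaling (-1.03, adjusted p = 0.00517). As deposited CS was at 30.61, 32.58 and 20.82 FPKM in the LL goats and 32.01, 39.18 and 35.10 in the DP goats. Its direction thus depended on the scaling. ME1, the cytosolic malic enzyme, was called lower in LG against LL (-1.58, adjusted p = 0.00044). CPT1A, which makes the acylcarnitine that SLC25A20 carries, was called higher in DP against LL (1.43, adjusted p = 0.00287), and HADHA of the trifunctional protein was called higher in LG against LL (1.37, adjusted p = 8.27e-05). Among regulators, ESRRA, in the end run like HADHA, was called lower in DP against LL (-1.63, adjusted p = 8.81e-05) and higher in LG against DP (1.28, adjusted p = 0.000836), while NRF1 was called higher in both DP and LG against LL (1.35 and 1.07). NRF1 was at 0.53, 0.17 and 0.27 FPKM in LL and passed the filter only with DP or LG libraries, so its calls are descriptions.

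Among the sideroflexins, a separate family of mitochondrial carriers that includes the serine carrier SFXN1, all 5 members were called in at least 1 comparison, as were 32.0% of all tested genes. SFXN1 and SFXN3 were higher in DP than in LL (1.02 and 1.94) and lower in LG than in DP (-1.02 and -1.16). SFXN4 was higher in DP and LG than in LL (1.63 and 1.76). SFXN3 (0.03, 0.06 and 0.13 FPKM in LL) and SFXN4 (0.21, 0.12 and 0.20) passed the filter only through DP and LG. Their calls against LL are therefore descriptions, as are the counts of partner genes called higher. SFXN5, which lies in the end run, was higher in LG than in LL and DP (1.73 and 1.82), and SFXN2 was higher in LG than in DP (1.01).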

How the data were processed

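RNA from mammary gland of 9 goats was sequenced (TruSeq RNA Library Prep Kit v2). Per the study's methods, the authors trimmed reads with Trimmomatic 0.39, aligned them with HISAT2 2.2.1, sorted them with SAMtools 1.10 and quantified transcripts with StringTie 2.2.0; the submitters' notes also name HTSeq. The authors deposited 1 table of 23499 genes with values taken as FPKM, since they carry decimals and differ in total; the table names neither unit nor build, and how transcript values became gene values is not given in the sources used here. All 46 members matched RefSeq gene identifiers of ARS1.2 with the same start and end, so coordinates are given on ARS1.2. FPKM keep no read depth.

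FPKM were divided by median-ratio factors from 15905 genes above 0 in all libraries, and log2(value + 1) was taken. A gene entered the test if 3 or more libraries reached 0.5 FPKM. The test was that of limma (version 3.58.1, R version 4.3.3; lmFit, contrasts.fit, eBayes with a mean-variance trend), in 1 fit of all 9 libraries without covariates, with Benjamini-Hochberg adjustment, tested on simulated data beforehand; stages came from the library titles. Summaries used Python 3.11.15 with pandas 2.3.3. Each SLC25 gene called in any comparison and the gene of highest mean in each transport group were named with values, except 1 gene that is not reported here and is included in the counts. The members and lists were chosen with earlier results of these data known. Alternatives were other scalings, pseudocounts, filters, call rules, fits with fewer libraries and a block for the library number.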

Additional observations from a re-analysis of the deposited data

How the results depend on the processing

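The filters (none, or at least 2 FPKM in 3 libraries), the fit without a mean-variance trend and the replicate block left the calls of all 66 results of named SLC25 genes (22 genes in 3 comparisons) as they were. With the replicate block the members called were 14, 7 and 5 in DP against LL, LG against LL and LG against DP, and the listed partner genes 12, 8 and 8. The library numbers do not pair goats, since each library came from a different goat. Deviations of same-numbered libraries correlated at -0.106 to 0.201, those of other libraries at -0.223 to 0.0722. Whether same-numbered libraries shared a handling step was not tested. With the adjusted p alone 28, 18 and 16 members and 30, 15 and 21 partner genes were called. LG against LL gave 18 members without scaling, 4 under quantile normalization and 11 with a pseudocount of 0.1, and LG against DP gave 9 with that pseudocount. Partner genes called without scaling were 21 in DP against LL and 26 in LG against LL. Without the members of the end run, an alternative chosen after seeing the data, 8 were called in DP against LL and 2 in LG against DP, and without the partner genes of that run 4 were called in each comparison of LG. The summed scaled FPKM was 556 in the LL goats, 269 in the DP goats and 419 in the LG goats.

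Leaving out each library gave 13 to 15, 6 to 8 and 5 to 8 members, 10 to 13, 7 to 8 and 5 to 9 partner genes, and summed FPKM of 291 to 331 in the LL goats, 374 to 406 in the DP goats and 485 to 550 in the LG goats. Of the values of named genes under leave-one-out, 568 kept their side, 12 passed the threshold, 9 lost it and 5 turned in sign. The sign turned for SLC25A29 in LG against LL (-0.45 to 0.10), SLC25A11 in DP against LL (-0.81 to 0.13) and LG against LL (-0.34 to 0.60) and SLC25A46 in LG against DP (-0.058 to 0.22), none of them a call. Under quantile normalization SLC25A29 and SLC25A39 turned to 0.077 and 0.031 in LG against LL.

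Without scaling the sign turned in DP against LL for SLC25A3 (0.62), SLC25A11 (0.90), SLC25A16 (0.041) and SLC25A20 (0.74), in LG against LL for SLC25A5 (0.51), SLC25A29 (0.97), SLC25A39 (0.98), SLC25A36 (0.90), SLC25A1 (0.25), SLC25A16 (0.40), SLC25A24 (0.67), SLC25A33 (0.78), SLC25A30 (0.46) and SLC25A12 (0.56), and in LG against DP for SLC25A46 (-0.0922) and SLC25A28 (-0.0701). The unscaled values carry the median shift between stages given with the scaling factors.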

Other observations

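The 75 ribosomal protein genes of the table fall in both of its runs, and their deposited values give a view of the end run on a set with 1 function. In DP relative to LL their median log2 ratio as deposited was 0.59 for the 57 in the end run and 0.85 for the 18 outside it, and in LG relative to LL it was 1.68 and 1.56. ELF5, a transcription factor of secretory luminal cells that also stands in the end run, was at 335.13, 373.76 and 266.27 FPKM in the LL goats, 39.49, 63.74 and 37.56 in the DP goats and 539.80, 503.89 and 654.06 in the LG goats. No explanation was tested for these values.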
